A study of Mus musculus with 4 samples.

Results

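The nuclei described here are those of the mouse hippocampus that carried markers of CA2 and CA3 pyramidal neurons. A nucleus was selected where its barcode held at least 500 detected genes, at least 4 of 10 marker genes with 1 or more UMIs, at least 1 UMI of Slc17a7 and at most 1 UMI of Gad1 and Gad2 together. The 10 marker genes were Iyd, Cd109, Homer3, Mndal, Ifi203, Trps1, Cpne4, Coch, Galnt3 and Nectin3. Slc17a7 encodes the vesicular glutamate transporter of hippocampal excitatory neurons, and Gad1 and Gad2 mark inhibitory ones. The rule found 3974 nuclei among 59750 with at least 500 detected genes. Because measured values chose them, the levels of the 10 markers in these nuclei are a description and support nothing.

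The study counted nuclear RNA in 4 single-nucleus libraries, 1 for each genotype in the labels, and its title concerns excess endocannabinoids in neurons and cognition. The labelled genotypes were Wild type, Total/global MAGL-KO, Astrocyte specific MAGL-KO and Neuron specific MAGL-KO, here called the wild-type, total-labelled, astrocyte-labelled and neuron-labelled library. MAGL is monoacylglycerol lipase, the product of Mgll. The Cre driver, the deleted part of the gene, the number of animals in a library and the age of the mice were not stated in the labels, which name no treatment. With 1 library per genotype no difference has a replicate check, and every interval below covers counting error only.

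CA3 pyramidal neurons receive the mossy fibres of the dentate granule cells on large proximal spines and excite each other through recurrent collaterals, and they send the Schaffer collaterals to CA1. CA2 is a narrow neighbouring field known for weak plasticity at its Schaffer collateral inputs, for a role in social memory and for the vasopressin receptor Avpr1b. MAGL breaks down 2-arachidonoylglycerol, the endocannabinoid that pyramidal neurons release to act back on presynaptic CB1 receptors.

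Among the 10 markers, Cd109, Mndal and Ifi203 stood nearly at 0 in unselected nuclei with CA1 or granule cell markers. Nuclei with 4 or more of the 10 markers had been left out of these comparison groups, so low levels there were favoured by the rule. In counts scaled per 1000000 UMIs (CPM), Cd109 had 0.19 to 0.54 over the 4 libraries in CA1 and 0.14 to 0.32 in granule nuclei. Mndal had 0.70 to 1.12 over the 4 libraries in CA1 and 0.65 to 2.45 in granule nuclei, and Ifi203 0.12 to 0.57 and 0.20 to 0.80. The latter pair belong to the interferon-inducible p200 family of DNA-binding proteins, and they lie together on the minus strand of chromosome 1 (GRCm38, GENCODE M21: Mndal chr1:173849126-173942491, Ifi203 chr1:173920407-173942672). Their gene models overlap, so how UMIs were divided between the pair is uncertain. Windows listed in RefSeq as their promoters are shown because the genes are neighbours and both windows hold the same motif. Both genes are among the 10 rule markers, so the rule favoured their presence together in selected nuclei. The RefSeq windows (GRCm38.p6) run from 250 bases before to 50 bases after a transcription start, at chr1:173880138-173880437 for Mndal and chr1:173942443-173942742 for Ifi203, each 1 of 2 listed starts, and capitals mark a match to the motif of GAAA, any 2 bases and GAAA again, a pattern of interferon-response elements.
Mndal: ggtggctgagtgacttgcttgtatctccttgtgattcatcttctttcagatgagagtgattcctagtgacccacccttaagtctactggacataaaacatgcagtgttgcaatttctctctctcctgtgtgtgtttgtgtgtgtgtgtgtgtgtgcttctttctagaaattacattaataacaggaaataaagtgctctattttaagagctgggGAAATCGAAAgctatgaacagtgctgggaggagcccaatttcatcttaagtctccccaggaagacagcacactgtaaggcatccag
Ifi203: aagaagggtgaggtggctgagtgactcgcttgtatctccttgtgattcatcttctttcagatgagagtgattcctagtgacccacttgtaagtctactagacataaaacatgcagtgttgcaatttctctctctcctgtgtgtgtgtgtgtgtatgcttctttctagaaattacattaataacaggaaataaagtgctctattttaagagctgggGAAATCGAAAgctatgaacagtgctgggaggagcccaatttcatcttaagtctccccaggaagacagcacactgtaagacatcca
A local alignment of the windows had 299 columns, of which 282 (94.3%) were identical, 7 were mismatches and 10 were gaps. The motif, searched on both strands, stood in 1131 of 32851 RefSeq promoter windows of the same length, which is 3.44%. The windows are nearly the same sequence, so their matches are not separate observations. In GENCODE M21 the minus-strand models of Mndal and Ifi203 start at 173942491 and 173942672, both inside the window listed for Ifi203. Which gene that window serves is therefore uncertain. The match is a property of the sequence, and no binding was measured.

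The libraries held 8945 to 31243 barcodes and 81623644 to 193307038 UMIs. The wild-type library gave 685 selected nuclei, or 7.36% of its nuclei (95% Clopper-Pearson interval 6.84 to 7.91). The rule took 1548 total-labelled nuclei (5.01%, 4.76 to 5.25), while 1106 came from the astrocyte-labelled library (10.4%, 9.80 to 10.97) and 635 from the neuron-labelled one (7.17%, 6.64 to 7.73). Of nuclei that met the Slc17a7, Gad1 and Gad2 limits, the selected ones were 11.8%, 10.4%, 15.8% and 11.6% in the same order of libraries. The selected nuclei had median depths of 16475, 10943.5, 12913 and 15065 UMIs in that order, so the library with the lowest share was also the shallowest. Scrublet called 7.88%, 37.8%, 15.4% and 4.41% of them doublets. Between 108 and 466 barcodes were shared by any pair of libraries, and 8 barcodes were selected in more than 1 library. Xist and 4 Y-linked genes gave 244 male and 374 female nuclei with the wild-type label, 433 and 501 with the astrocyte label and 311 and 248 with the neuron label. The total-labelled library had 1491 male and 0 female nuclei, so its genotype and sex cannot be told apart unless male nuclei alone are compared.

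Nuclei at the edge of the rule differed in kind. The 1295 nuclei with exactly 4 markers had a Grik4 level of 590.0 CPM and a Neto1 level of 605 CPM. The 2940 otherwise eligible nuclei with 3 markers had 262 and 322 CPM of these genes, which encode a high-affinity kainate receptor subunit and its auxiliary protein, and the 985 nuclei with 5 markers had 889 and 912 CPM. Fibcd1, a CA1 marker, stood at 8.55 CPM with 4 markers and 16.1 CPM with 3. The selected nuclei were therefore clustered, and 14 clusters were obtained.

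Of the 14 clusters, 6 with 2410 nuclei were CA3-like and 1 with 155 nuclei was CA2-like on marker lists. Only the largest CA3-like cluster, with 4, had 3 or more CA3 markers past 2-fold of the other selected nuclei. The other CA3-like clusters had 0 or 1. They were named on at least 3 of 6 CA3 markers outside the rule past 2-fold of unselected nuclei. The 2565 CA2-like and CA3-like nuclei, 64.5% of the selected ones, are called the CA2/CA3-cluster nuclei below, a restriction made after the data were seen. In the order wild-type, total-, astrocyte- and neuron-labelled, which all runs of 4 values below follow, they made up 67.6%, 52.9%, 72.5% and 75.7% of the selected nuclei, and 0.648%, 4.40%, 0.623% and 0.208% of them were called doublets. Over their 4 libraries the rule markers Iyd, Cd109 and Homer3 ranged from 13.1 to 19.4, 20.5 to 24.7 and 57.0 to 82.6 CPM. Trps1 ranged from 1649.6 to 1869 CPM, Cpne4 from 803 to 908 CPM, Galnt3 from 105 to 118 CPM and Nectin3 from 503 to 597 CPM. The other 1409 selected nuclei comprised 197 mossy cell-like nuclei (leading genes Wnt9b, Csf2rb2, Drd2, Gal and Tm4sf1), 164 granule-like nuclei led by Glis3, 821 nuclei in 4 clusters that were mostly called doublets, and an unnamed cluster of 227 nuclei. The mossy cell-like, granule-like and unnamed nuclei go against the label, while each of the 4 doublet clusters also had 5 or 6 of 6 CA3 markers outside the rule past 2-fold of unselected nuclei. The unnamed cluster was led by Igfn1 and had 245 CPM of the cortical marker Rorb and 67.3 CPM of Coch, which was found in 59.0% of its nuclei. It held 93 wild-type, 89 total-labelled, 17 astrocyte-labelled and 28 neuron-labelled nuclei.

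**Figure D1:**
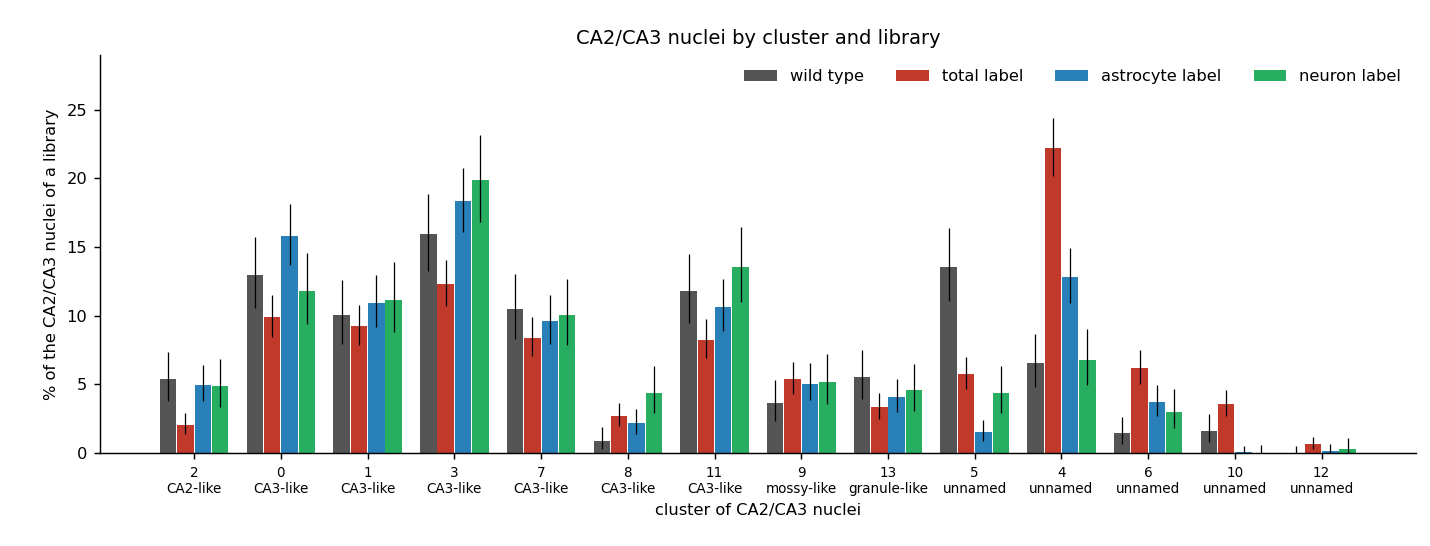
Percent of each library's selected nuclei in each of the 14 clusters, with bars for the 4 libraries and lines for the 95% exact binomial interval. The 4 clusters that were mostly called doublets are largest in the total-labelled library, and the unnamed Igfn1 cluster holds 13.6% of the wild-type and 1.54% of the astrocyte-labelled nuclei.

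**Figure D2:**
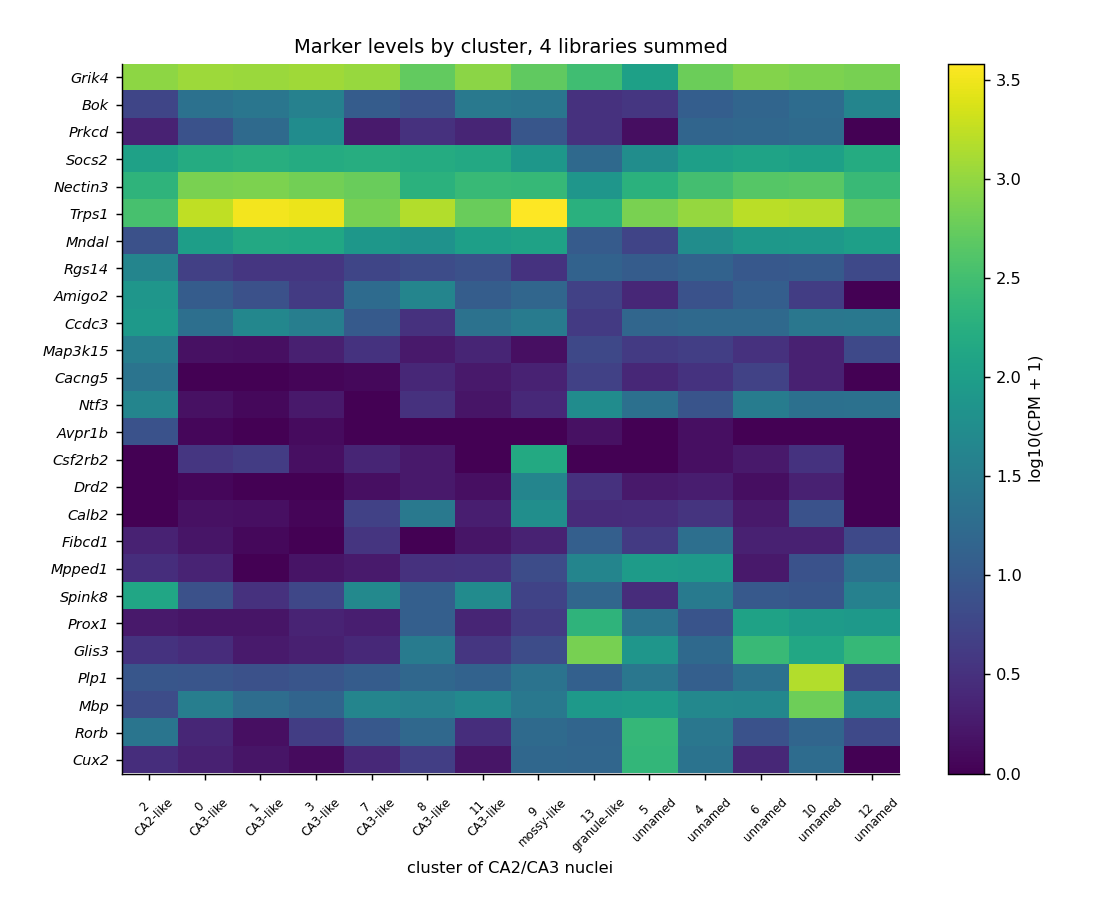
Levels of 26 marker genes in the 14 clusters, summed over the 4 libraries, as log10(CPM + 1) from dark blue (low) to yellow (high). Rgs14, Cacng5 and Avpr1b are highest in the CA2-like cluster, and Mndal is low there and high in the CA3-like clusters.

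CA2-like nuclei numbered 37, 32, 55 and 31, or 7.99%, 3.91%, 6.86% and 6.44% of the CA2/CA3-cluster nuclei. They had a median of 4 rule markers, the fewest the rule allows, against 5 or 6 in the CA3-like clusters. The total-labelled library was the shallowest, and the effect of depth on these shares was not tested. The CA2-like cluster was formed on the same genes, so its markers are a description. Rgs14, a regulator of G-protein signalling that restrains plasticity in CA2, stood at 31.9, 40.4, 40.0 and 57.2 CPM in these nuclei. In the 6 CA3-like clusters it lay between 2.66 and 6.64 CPM. Amigo2, an adhesion protein of CA2, stood at 93.1, 70.7, 70.9 and 61.2 CPM, and Map3k15 at 30.6, 32.8, 22.9 and 55.2 CPM. Each of these genes was detected in the CA2-like nuclei of every library. Avpr1b stood at 6.38, 7.58, 4.58 and 11.8 CPM, and over the CA3-like clusters it did not pass 0.26 CPM. Cacng5, an AMPA receptor auxiliary subunit, stood at 30.6, 37.9, 9.15 and 21.7 CPM and had its lowest level in the astrocyte-labelled library. Ntf3, which encodes neurotrophin-3, stood at 25.5, 48.0, 42.3 and 61.2 CPM, lowest in wild type, and summed over libraries it was higher still in the granule-like cluster, at 53.8 CPM against 41.8 CPM.

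Several markers of the rule stood lower in CA2-like than in CA3-like nuclei, while Cpne4 stood higher, at 1144 to 1317 against 786 to 873 CPM. Mndal stood at 6.64 CPM and Ifi203 at 5.86 CPM in the CA2-like cluster, against 65.2 to 146 CPM and 10.98 to 65.6 CPM in the CA3-like clusters. Nectin3, a cell adhesion protein of the puncta adherentia at mossy fibre synapses, stood at 212 CPM in the CA2-like cluster. Over the 4 libraries it ranged from 148 to 260 CPM in CA2-like and from 526 to 629 CPM in CA3-like nuclei. Cdh9, a cadherin that helps to match mossy fibres with CA3, stood at 67.2 CPM in the CA2-like cluster and at 224 to 919 CPM in the CA3-like clusters. Neto1 stood at 495 to 579 CPM over the 4 libraries in CA2-like nuclei, and Kcnc2, a Kv3 potassium channel subunit, at 185 to 321 CPM. The striatal-enriched phosphatase gene Ptpn5 stood at 217, 235, 189 and 233 CPM in CA2-like nuclei and at 61.0, 58.5, 62.6 and 62.0 CPM in all CA2/CA3-cluster nuclei. Nr3c2, the mineralocorticoid receptor, stood at 2776, 2280, 2002 and 2557 CPM in CA2-like nuclei, above the 1249 to 1435 CPM of all CA2/CA3-cluster nuclei in every library. The vasopressin receptor Avpr1b rested on few UMIs and was not counted against wild type.

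The 6 CA3-like clusters differed from each other along several genes. The largest, of 629 nuclei led by Cd38 and Arhgap25, had the highest Prkcd level at 53.6 CPM and a Luzp2 level of 1567 CPM. Prkcd encodes protein kinase C delta. A cluster of 404 nuclei led by Npr1 and Col15a1 had 3344 CPM of Trps1, a GATA-type repressor, and 16.2 CPM of Prkcd. The cluster of 492 nuclei led by Loxl1 and Lcp1 had 7097 CPM of Kcnq5, an M-current channel subunit. Kcnq5 reached 10037 CPM in the cluster of 372 nuclei led by Plagl1, Tmem163 and Foxo1 and stood at 634 CPM in the cluster of 413 nuclei led by Armc4 and St18. This last cluster had 1760 CPM of Gabrg3, a GABA-A receptor subunit, against at most 39.5 CPM in the other CA3-like clusters and the CA2-like one. Kirrel3, an adhesion protein of mossy fibre circuits, stood at 14.2 CPM in the Cd38 cluster and at 1529 CPM in the smallest.

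The smallest CA3-like cluster held 100 nuclei led by Kcnmb2, Cd24a, Cd44, Vgll3 and Mybpc1. It comprised 6 wild-type nuclei (0.876% of those selected, 0.322 to 1.90), 42 total-labelled (2.71%, 1.96 to 3.65), 24 astrocyte-labelled (2.17%, 1.40 to 3.21) and 28 neuron-labelled nuclei (4.41%, 2.95 to 6.31). Kcnmb2, a BK channel beta subunit, stood at 751 CPM there and at 26.0 CPM or less in the other CA3-like clusters and the CA2-like one. Cd44, a hyaluronan receptor, stood at 118.6 CPM and Coch at 104 CPM. Among the cluster's nuclei 12% were called doublets. When called doublets were left out before clustering, a CA3-like cluster that was also led by Kcnmb2 held 92 nuclei, of which 6, 35, 24 and 27 came from the 4 libraries.

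The CA2/CA3-cluster nuclei were set beside 10265 CA1 nuclei and 7178 dentate granule nuclei, chosen by detection of at least 3 markers of their own lists. Selected nuclei were left out of both groups, which holds down the levels of the rule markers in them. Of 13190 genes counted, 1353 (10.3%) had a lowest library in the CA2/CA3-cluster nuclei that was above the highest library of both CA1 and granule nuclei, and 1567 (11.9%) had a highest library below the lowest of both. Genes said to stand above or below both met this rule, under which the ranges over libraries do not overlap. The type comparison is a description, since the rule and the clusters chose the nuclei by expression. Grik4 is outside the rule but is one of the CA3 markers used to name CA3-like clusters. It stood at 922, 1036, 1217 and 981 CPM, against 115 to 137 CPM in CA1 and 267 to 325 CPM in granule nuclei. All 4 libraries lay above both ranges, which the naming favoured. Neto1 stood at 1191, 1123, 1017 and 1021 CPM, against 244 to 299 and 245 to 290 CPM. Prox1, a granule cell marker, reached at most 3.24 CPM.

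Of 9 kainate and delta receptor genes, 3 stood above both (Grik4, Neto1, Neto2) and Grik1, Grik3 and Grid1 were among those below. Neto2 had 130 to 170 CPM against 76.4 to 96.7 in CA1 and 12.9 to 22.8 in granule nuclei. Of 22 potassium channel genes, 5 stood above both and 5 below. Kcnq5 ranged from 5134 to 5301 CPM against 1291 to 1714 and 80.7 to 305 CPM, and Kcnc2 from 852 to 1041 CPM against 266 to 396 and 10.3 to 49.4 CPM. On the low side, Kcnh7, an ERG-type channel, had 24.1 to 50.2 CPM against 1995 to 2403 and 373 to 530 CPM, and Kcnd2, an A-type channel, 2296 to 2415 CPM against 4062 to 4500 and 4637 to 4854 CPM. Genes of both families thus stood on either side, beside 10.3% of all genes above both and 11.9% below.

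Of 20 genes of mossy fibre synapses, 6 stood above both (Nectin3, Nectin1, Afdn, Gpr158, Nrxn3, Nrp2) and 7 below (Gpc4, Lrrtm2, Igsf8, Kirrel3, C1ql3, Tenm3, Slc30a3). Nectin3 is one of the 10 rule markers, and 10.3% of all genes stood above both and 11.9% below. Gpc4, a glypican, had 2.97 to 6.48 CPM against 37.1 to 39.5 in CA1 and 202 to 228 in granule nuclei, and C1ql3, a secreted synaptic organiser, 3.42 to 9.12 CPM against 52.2 to 67.6 and 246 to 319 CPM. Tenm3, a teneurin of CA1 wiring, had 66.3 to 87.9 CPM against 1403 to 1773 and 118 to 229 CPM. Of 22 vesicle release genes 8 stood above both (Syn2, Syt1, Snap25, Rims1, Bsn, Pclo, Cplx1, Sv2b) and 5 below, with Rims1, an active zone scaffold, at 2182 to 2351 CPM against 1132 to 1240 and 1592 to 1692 CPM.

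Among calcium and sodium channels 4 of 17 genes stood above both (Cacna1a, Cacna1b, Cacna1c, Cacna1i) and 4 below (Cacna2d1, Cacnb4, Scn3a, Scn3b). Cacna1a, the P/Q-type channel, had 1127 to 1349 CPM against 571 to 596 and 401 to 467 CPM. Of 13 AMPA receptor genes Gria2, Cacng2 and Shisa6 stood above both and Cacng3, Cnih3 and Shisa9 below. Of 12 GABA-A receptor genes Gabra5 stood above both, and Gabrb2 and Gabrd were among those below. Among the 17 modulatory receptors counted, Npy2r, Htr7, Adora1 and Adra1d stood above both and 5 below. Sgk1, a kinase induced by corticosteroids, had 238 to 256 CPM against 103 to 123 and 47.4 to 69.0 CPM, while the glucocorticoid receptor Nr3c1 had 34.2 to 46.5 CPM against 148 to 156 and 90.5 to 119 CPM. Of 5 NMDA receptor genes none stood above both and 2 below, and of 7 metabotropic receptor genes 1 and 3. Of 14 genes of calmodulin-dependent kinases and plasticity inhibitors none stood above both and 2 below. Among 18 immediate early genes none had ranges clear of both, above or below. Beside these counts, 10.3% of all genes stood above both and 11.9% below.

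Outside the rule, the genes that stood highest over CA1 in their lowest library were 4930467D21Rik, Tspan18, Dpf3, A730049H05Rik, Naa11, Ccbe1, Gm34567, Il16, Olfr557 and Mfsd13b. Tspan18, a tetraspanin, had 70.9, 79.8, 99.8 and 83.5 CPM against 0.53 to 1.94 CPM in CA1. Ccbe1, a secreted protein of lymphatic growth, had 422, 458, 560 and 431 CPM against 12.4 to 16.3 CPM, and Dpf3, a BAF chromatin remodeller subunit, 242, 262, 304 and 247 CPM against 4.51 to 8.06 CPM. Over granule nuclei the leading genes were Vgll3, Cldn22, 2310002F09Rik, Olfr558, Gm47033, Olfr557, Nkd2, Olfr550, Gm32647 and Slc9a2. Gm32647 had 1214, 1217, 1120 and 1157 CPM against 3.24 to 44.9 CPM, and Slc9a2, a sodium-proton exchanger, 64.5, 61.7, 66.3 and 72.7 CPM against 1.01 to 2.25 CPM. Olfr550 and Olfr557 are olfactory receptor genes on chromosome 7 (GRCm38 chr7:102571442-102583011 and chr7:102695910-102700707). They had few UMIs, with Olfr557 at 4.05, 5.52, 6.13 and 5.85 CPM.

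The knockout libraries were next compared with the wild-type library within the CA2/CA3-cluster nuclei. Of 11824 genes with at least 100 UMIs, 7.68% lay past 1.5-fold in the total-labelled library, with 244 higher (2.06%) and 664 lower (5.62%). The astrocyte-labelled library had 4.3%, with 197 higher (1.67%) and 312 lower (2.64%), and the neuron-labelled 6.62%, with 277 higher (2.34%) and 506 lower (4.28%). Over all 3974 selected nuclei and 13190 genes these shares were 8.17% (2.55% higher, 5.62% lower), 6.58% (1.46% and 5.12%) and 8.18% (2.12% and 6.07%). In the astrocyte-labelled library 22.2% of the genes past 1.5-fold were higher over all selected nuclei and 38.7% over the CA2/CA3-cluster nuclei. In those cluster nuclei the median log2 ratio of all genes to wild type was -0.04, -0.04 and -0.01 in the total-, astrocyte- and neuron-labelled library, the order of all runs of 3 ratios or medians below. The 3 comparisons share the wild-type library, so a gene that is unusual in it differs in all of them.

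Summed markers of other cell types differed between libraries as well. The summed level of 7 oligodendrocyte markers was 109, 163, 40.2 and 49.7 CPM over all selected nuclei and 39.8, 48.4, 29.6 and 41.6 CPM over the CA2/CA3-cluster nuclei. The 9 inhibitory neuron markers summed to 157, 240, 113 and 130 CPM and to 16.8, 40.0, 18.7 and 20.1 CPM, with the highest values in the total-labelled library. The 8 subicular and cortical markers summed to 312, 326, 195 and 226 CPM and to 171, 178, 143 and 149 CPM. Single genes carried much of the last 2 sums in the CA2/CA3-cluster nuclei. Tle4 alone had 122 to 151 CPM there, above the 50.5 to 82.1 CPM of CA1 nuclei. Adarb2, on the inhibitory list, had 4.56, 21.4, 4.25 and 6.25 CPM there and 1488 to 2007 CPM in granule nuclei. These sums are therefore not a measure of subicular, cortical or inhibitory RNA alone. Because all sums given here were lower in the CA2/CA3-cluster nuclei, values below are from those nuclei unless stated. The part of RNA from other cells in any difference was not tested.

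Mgll (GRCm38 chr6:88724412-88828360, plus strand) was not at 0 in any library. The wild-type level was 138 CPM (counting interval 129.6 to 146), and the total-labelled level was 113 CPM (106 to 121). The astrocyte- and neuron-labelled libraries had 167 CPM (159 to 175) and 140.2 CPM (132 to 149). Against wild type the log2 ratios were -0.28 (-0.41 to -0.15), 0.27 (0.16 to 0.39) and 0.03 (-0.10 to 0.15), so no library passed 1.5-fold. In male nuclei of these clusters alone Mgll stood at 159.6, 113, 163 and 144 CPM, and the ratios were -0.50 (-0.65 to -0.33), 0.03 and -0.15. Over all selected male nuclei the total-labelled ratio was -0.60 (-0.73 to -0.46), which is past 1.5-fold. Female nuclei of the clusters had 121, 171 and 135 CPM with the wild-type, astrocyte and neuron label, and over all selected female nuclei the astrocyte-labelled ratio was 0.52 (0.38 to 0.67). The astrocyte-labelled library thus stood above wild type in female nuclei and near it in male ones, and the difference between the sexes was not tested. Since the deleted part of Mgll is not given and these UMIs may lie outside it, the gene does not check the labels.

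Within wild type, Mgll ranged from 54.6 CPM in the Kcnmb2 cluster to 195 CPM in the Npr1 cluster and 218 CPM in the Cd38 cluster. The wild-type Kcnmb2 value rests on 5 UMIs in 6 nuclei, with a wide interval of 17.7 to 127 CPM. The Cd38 and Kcnmb2 clusters were also the highest and the lowest CA3-like clusters in the other libraries, with 192, 244 and 213 CPM in the Cd38 cluster and 30.7, 66.1 and 62.1 CPM in the Kcnmb2 cluster. CA2-like nuclei had 82.9, 75.8, 128 and 134 CPM. In the mossy cell-like nuclei no Mgll UMI was found in the wild-type or neuron-labelled library, which allows up to 6.87 and 6.11 CPM at 3 counts (the 2-sided Poisson limits are 8.44 and 7.51 CPM), and the total- and astrocyte-labelled libraries had 15.6 and 10.9 CPM. CA1 nuclei had 75.6, 57.5, 70.5 and 81.6 CPM and granule nuclei 120, 96.2, 139 and 132 CPM. The spread between these cell groups was thus wider than that between genotypes.

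**Figure D3:**
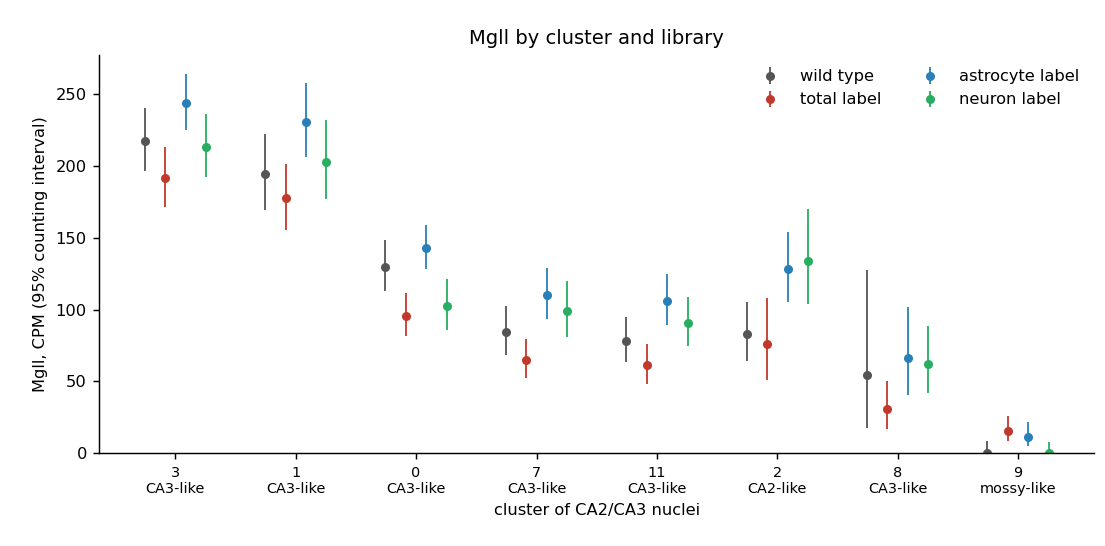
Mgll level (CPM) in the clusters of selected nuclei and in the 4 libraries, with lines for the 95% Poisson counting interval. The Cd38-led and Npr1-led CA3-like clusters are highest in every library, and the mossy cell-like cluster is at or near 0.

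Of 20 listed genes of endocannabinoid signalling 17 had enough UMIs, none lay past 1.5-fold higher, and Abhd4, a lipase of N-acyl phospholipids, lay lower at 6.21, 3.60, 2.67 and 4.49 CPM in the total- and astrocyte-labelled libraries, where 5.62% and 2.64% of all genes did. The list's median log2 ratios were -0.04, -0.01 and 0.05. Cnr1, the CB1 receptor, stood at 83.2, 85.5, 78.4 and 79.7 CPM, Dagla, which makes 2-arachidonoylglycerol, at 96.8, 113, 122 and 118 CPM, and its homologue Daglb at 25.5, 27.5, 29.6 and 36.3 CPM. The serine hydrolases Abhd6 and Abhd12, which also break it down, stood at 121, 109.8, 116 and 111 CPM and at 125.5, 110.0, 117 and 121 CPM. Faah, which degrades anandamide, stood at 142, 160.1, 145 and 150.2 CPM, above the CA1 and granule nuclei in every library. So did Ptgs2, cyclooxygenase-2, at 22.4, 20.3, 19.7 and 26.1 CPM. Over all selected nuclei Naaa, of the same list, lay past 1.5-fold higher in the total- and neuron-labelled libraries, where 2.55% and 2.12% of all genes did. In male nuclei of the clusters its log2 ratios in these libraries were -0.22 and -0.085.

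Spock1, which encodes the secreted proteoglycan testican-1, was lower in the neuron-labelled library than in the other 3. The 4 levels were 933, 893, 918 and 242 CPM. The last gave a log2 ratio of -1.95 (-2.02 to -1.87), and the other knockout libraries gave -0.06 and -0.02. The gene lies at GRCm38 chr13:57421195-57908332 on the minus strand. CA2-like nuclei had 1081, 1003, 980 and 365 CPM. In CA1 nuclei Spock1 stood at 176, 198, 154 and 34.3 CPM and in granule nuclei at 21.3, 62.8, 38.2 and 4.76 CPM, so the neuron-labelled library was lowest in all of these groups.

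Within the neuron-labelled library Spock1 differed by sex. Its male nuclei had 387 CPM and its female nuclei 43.2 CPM, while male and female nuclei had 914 and 956 CPM with the wild-type label and 936 and 907 CPM with the astrocyte label. The CA1 nuclei of the neuron-labelled library had 58.3 CPM in male and 6.17 CPM in female nuclei. After thinning each nucleus to 5000 UMIs, a Spock1 UMI was found in 98.2%, 97.8%, 94.9% and 48.3% of nuclei, and in the last library in 70.5% of male and 17.2% of female nuclei. Thinning left out 10, 43, 12 and 7 shallower nuclei, and the unthinned shares were 99.6%, 99.1%, 98.5% and 64.4%. In granule nuclei, with median depths of 8397.5, 5426, 6335 and 7606 UMIs, the thinned shares were 6.27%, 19.6%, 11.8% and 1.18% and the unthinned ones 9.15%, 17.5%, 13.8% and 2.35%. Thinning left out 111 of 1530, 1238 of 3008, 369 of 1447 and 173 of 1193 granule nuclei, so the total-labelled share rests on its deeper nuclei. Median depths of the CA2/CA3-cluster nuclei were 16769, 9771, 12186.5 and 14842 UMIs. Among 18 counted genes within 1500000 bases of Spock1, log2 ratios in the neuron-labelled library lay between -0.88 and 0.36 over all selected nuclei, and in the cluster nuclei the neighbour Klhl3 stood at 182, 185, 190.3 and 195 CPM. Sex and whatever else differs between the animals of that library cannot be told apart.

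**Figure D4:**
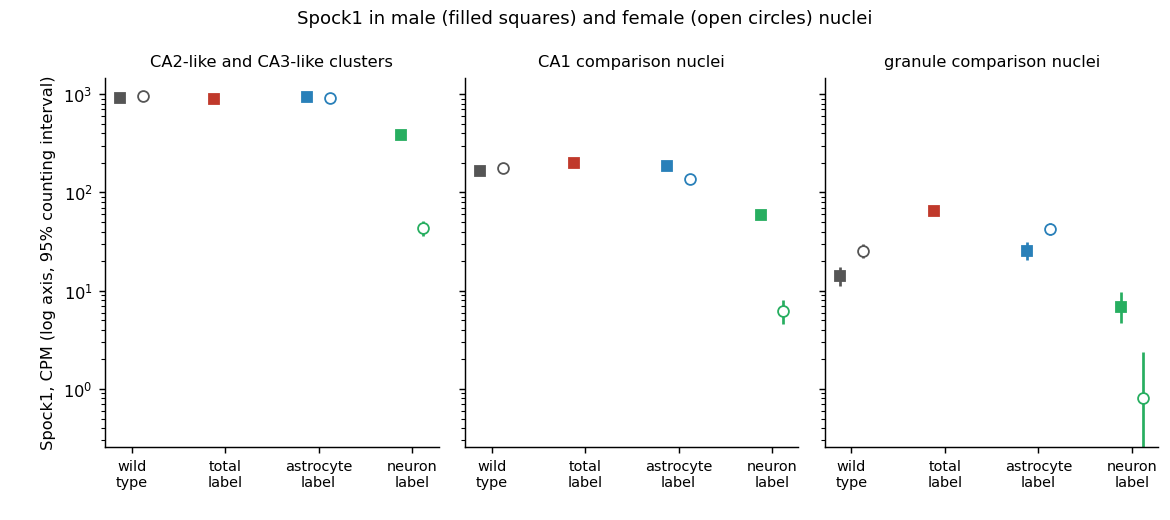
Spock1 level (CPM, log axis) in each library for CA2/CA3-cluster, CA1 and dentate granule nuclei, with filled squares for male and open circles for female nuclei. The female nuclei of the neuron-labelled library are lowest in each panel, at 43.2, 6.17 and 0.818 CPM, and the total-labelled library has no female CA2/CA3-cluster nuclei.

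Genes named for a high or low ratio were taken from 4372 of the 11824 counted, those whose mean CPM in these nuclei was at least that in the nuclei not selected. Genes more abundant in other nuclei, such as Ttr, Adarb2 and Tshz2, were thus not ranked, although some had wider ratios. Within each library the ranking was by the bound of the counting interval nearer 0. The minimum of 100 UMIs applied to the sum over all libraries. Among sparsely counted genes it therefore favoured those that stood high in some library. Some of the 4372 genes stood apart from wild type in all 3 knockout libraries. Ide, the insulin-degrading enzyme (GRCm38 chr19:37268743-37337852, minus strand), stood at 44.7, 97.0, 80.2 and 95.3 CPM. Its log2 ratios were 1.12 (0.94 to 1.30), 0.84 (0.66 to 1.03) and 1.09 (0.91 to 1.28). Wild-type male and female nuclei, at 43.4 and 44.8 CPM, both lay below every group of the other libraries, the lowest of which was 76.9 CPM. CA1 nuclei had ratios of 1.16, 0.75 and 1.09, so the difference was not particular to CA2 and CA3. Over all selected nuclei 21 counted genes within 1500000 bases of Ide had log2 ratios from -0.76 to 0.73, from -0.91 to 0.58 and from -0.44 to 0.63. The last of these upper ends was that of the neighbour Btaf1, which stood at 179, 258, 231 and 289 CPM in the cluster nuclei.

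Other genes higher in all 3 were less well counted. Slc14a2, a urea transporter, stood at 4.43, 10.4, 10.8 and 12.6 CPM, Nek11, a cell cycle kinase, at 4.69, 11.04, 9.40 and 9.24 CPM, and Ankrd35 at 3.04, 6.24, 6.23 and 7.75 CPM. Lrrc45, a centrosomal linker protein, stood at 10.9, 18.2, 20.2 and 23.0 CPM. Cd44 stood at 2.66, 9.12, 4.95 and 8.43 CPM, in the same order as the share of the Kcnmb2 cluster except between the total- and neuron-labelled libraries. Lower in all 3 were Gm11290, P2ry6, Gm43305, Gm20149 and Gm17529, with the noncoding Gm11290 at 13.2, 5.28, 3.96 and 4.62 CPM. Its wild-type male and female nuclei, at 14.04 and 12.1 CPM, lay above those of all other libraries. P2ry6, a UDP receptor typical of microglia, stood at 4.94, 2.52, 2.27 and 2.72 CPM beside summed microglial markers of 49.8, 42.1, 45.9 and 37.4 CPM. Over all selected nuclei its log2 ratios were -0.82, -0.34 and -0.19, and those of Gm17529 were -1.70, -0.36 and -0.62. Both genes thus did not pass 1.5-fold in every library there. In the cluster nuclei P2ry6 rested on 39, 21, 23 and 20 UMIs and Gm17529 on 41, 13, 28 and 22. Both met the minimum of 100 summed UMIs partly through the wild-type count, so the minimum favoured their direction.

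Among the ranked genes of the total-labelled library the highest were Cd44, Ide, Coch, Nek11 and Slc14a2. Coch is one of the 10 rule markers, so the selection bears on its level in each library and its ratio is a description. The lowest were Cdk15, Bche, 5031415H12Rik, 4930532I03Rik and Gm20642. Cdk15, a cyclin-dependent kinase, stood at 10.4, 2.16, 7.91 and 8.16 CPM, a log2 ratio of -2.20 that went with -1.72 in CA1. Bche, butyrylcholinesterase, stood at 10.5, 3.00, 11.2 and 9.11 CPM. The antisense transcript Gm20642 stood at 117, 49.0, 103 and 81.0 CPM, and reads of antisense genes cannot be told from those of their partners where strand was not used. For each of the 5 genes the total-labelled library was the lowest. Among receptor genes Gabra2, a GABA-A receptor subunit, was the one GABA-A gene of 10 past 1.5-fold, at 648 CPM in wild type and 982, 811 and 838 CPM in the others, a log2 ratio of 0.60 in the total-labelled library, where 2.06% of all genes lay higher. Male nuclei alone had 698, 982, 828 and 739 CPM, so Gabra2 did not pass 1.5-fold when only male nuclei were compared.

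Among the ranked genes of the astrocyte-labelled library the highest were Slc14a2, Ide, Mdga1, Catsperz and 4930533B01Rik. Catsperz rested on 18, 24, 59 and 39 UMIs and 4930533B01Rik on 22, 20, 68 and 34. Both met the minimum of 100 summed UMIs partly through this library, so the minimum favoured a high ratio in it. Mdga1, a neuroligin-binding suppressor of inhibitory synapses, stood at 54.5, 63.7, 93.7 and 68.4 CPM, with 94.9 CPM in male and 92.4 in female nuclei of that library. In the neuron-labelled library male nuclei had 85.3 and female nuclei 47.9 CPM, so Mdga1 varied with sex there. The lowest of the ranked genes were Gm47283, Gm11290, Luzp2, Hmgcs1 and Alcam, of which Luzp2 and Alcam, at log2 ratios of -0.55 and -0.57, did not pass 1.5-fold. Gm47283, on the Y chromosome in GENCODE M21 (chrY:90784738-90816464), stood at 233, 140.1, 44.6 and 93.8 CPM and was also found in female nuclei, at 276 CPM in wild type. Its reads are therefore not confined to male nuclei. Luzp2, a leucine zipper protein, stood at 944, 940, 643 and 942 CPM, Alcam, a cell adhesion protein, at 488, 492, 330.0 and 453 CPM, and Hmgcs1, an enzyme of cholesterol synthesis, at 35.2, 32.9, 20.7 and 31.8 CPM. Hmgcs1 had a log2 ratio of -0.77 here and -0.91 in CA1.

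Among the ranked genes of the neuron-labelled library the highest were Slc14a2, Cd44, Ide, Stc2 and Lrrc45 and the lowest Spock1, Gm47283, Gm11290, Angpt2 and Gm34544. Stc2, a secreted glycoprotein of calcium and phosphate balance, stood at 1.77, 1.80, 3.46 and 5.44 CPM. It rested on 14, 15, 35 and 40 UMIs, near the minimum of 100 summed over all libraries. Stc2 met that minimum partly through its higher libraries, so the minimum favoured the direction of its ratio. Angpt2, an angiopoietin, stood at 12.4, 5.64, 8.21 and 4.76 CPM, lowest in the total- and neuron-labelled libraries. Vegfc, a lymphatic growth factor, was ordered the other way at 13.3, 22.0, 14.1 and 22.7 CPM. Vegfc was among the 5 genes with the widest gap between these 2 libraries and the other 2, with Cd44, Vgll3, Coch and A930016O22Rik. Vgll3 stood at 19.8, 30.9, 19.6 and 38.6 CPM and Coch at 3.17, 8.52, 4.85 and 7.48 CPM, and both led or marked the Kcnmb2 cluster. Coch is also a rule marker, so the selection bears on its level in each library. On the low side Gm44026, Gm4128, Gm22146, Lpar6 and 4930599N23Rik had the widest gap, with Lpar6, a lysophosphatidic acid receptor, at 5.95, 3.60, 7.52 and 2.99 CPM.

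All 20 genes of the mossy fibre synapse were counted, and 2 of them, Gpc4 and C1ql3, lay past 1.5-fold higher in the total-labelled library, where 2.06% of all genes did. Over all selected nuclei without called doublets the Gpc4 log2 ratio in that library was -0.14. No gene of the list passed 1.5-fold in the other libraries, and its medians were 0.05, -0.03 and 0.03. C1ql3 stood at 3.42, 9.12, 4.95 and 4.62 CPM, beside granule cell markers that summed to 13.6, 28.5, 14.2 and 19.2 CPM, and the part of granule cell RNA was not tested. Nectin3 stood at 532, 576, 597 and 503 CPM and Cdh9 at 558, 632, 625 and 617 CPM. Adgrb3, a C1ql receptor, stood at 2861, 2805, 2472 and 2684 CPM.

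None of the 7 kainate and delta receptor genes counted passed 1.5-fold, with medians of 0.03, 0.07 and 0.01. Grik5 came nearest at 106, 145, 146 and 157 CPM, with wild-type male and female nuclei at 111 and 103 CPM. In the total-labelled library 2.06% of all genes lay past 1.5-fold higher and 5.62% lower, and in the astrocyte-labelled one 2.64% lay lower, so the single genes that follow are not a result about their lists. Of 12 AMPA receptor genes Cnih2, a cornichon auxiliary subunit, lay lower in the total-labelled library at 43.9, 27.3, 46.7 and 45.4 CPM, and Gria1 stood at 2693, 2944, 3055 and 2977 CPM. Of 5 NMDA receptor genes Grin3a lay lower in the astrocyte-labelled library at 5.57, 7.32, 2.97 and 4.08 CPM. Grin1, the obligatory subunit, stood at 388, 453, 475 and 494 CPM without passing 1.5-fold. Of 4 metabotropic receptor genes Grm8 lay higher in the total-labelled library, at 11.5, 22.3, 12.1 and 10.6 CPM.

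Of 22 potassium channel genes 1 lay past 1.5-fold in the total- and 1 in the astrocyte-labelled library, beside 7.68% and 4.3% of all genes. Kcnh7 lay higher in the total-labelled library at 30.9, 50.2, 24.1 and 24.2 CPM, and Kcnn3, an SK channel, lay higher in the astrocyte-labelled at 15.6, 20.9, 27 and 20.1 CPM. Kcnh7 is far more abundant in CA1 nuclei, and CA1 markers summed to 223, 217, 171 and 187 CPM, of which Man1a alone had 131 to 175 CPM. None of 17 calcium and sodium channel genes passed 1.5-fold, with medians of 0.07, 0.10 and 0.03. Cacnb4, an auxiliary calcium channel subunit, came nearest at 317, 312, 225 and 298 CPM. Of 19 vesicle release genes Unc13c lay lower in the neuron-labelled library, at 11.3, 12.5, 8.60 and 6.39 CPM, beside 4.28% of all genes.

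Of 14 modulatory receptor genes 1 passed 1.5-fold in each library, beside 7.68%, 4.3% and 6.62% of all genes. Oprl1, the nociceptin receptor, lay lower in the total-labelled library at 8.11, 4.56, 6.82 and 8.97 CPM. Htr2c, a serotonin receptor, lay lower in the astrocyte-labelled library at 165, 158, 106 and 119.9 CPM. Htr2a, another serotonin receptor, lay higher in the neuron-labelled library at 16.2, 21.8, 14.9 and 27.5 CPM. Of 6 corticosteroid genes Per1 lay higher in the neuron-labelled library at 9.63, 12, 8.01 and 16.9 CPM, and Fkbp5, a glucocorticoid-induced chaperone, stood at 89.2, 62.7, 82.9 and 79.0 CPM. Camk2a, a subunit of calmodulin-dependent kinase II, stood at 859.5, 899.6, 862 and 870.0 CPM. No p200 gene passed 1.5-fold. Mndal stood at 99.2, 114, 103 and 98.1 CPM, Ifi203 at 39.1, 42.1, 40.5 and 46.6 CPM and Aim2, the DNA sensor of this family, at 7.73, 7.68, 8.60 and 5.71 CPM.

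Of 8 CA2 marker genes counted, Amigo2, Map3k15 and Stard5 lay lower in the total-labelled library, where 5.62% of all genes did and where the share of CA2-like nuclei was lowest. Within the CA2-like nuclei Amigo2 stood at 93.1, 70.7, 70.9 and 61.2 CPM, Map3k15 stood at 30.6, 32.8, 22.9 and 55.2 CPM, and Stard5 at 210.4, 212, 206 and 136 CPM. In the neuron-labelled library Ntf3 lay higher and Stard5, a lipid transfer protein, lower, beside 2.34% and 4.28% of all genes, at 2.79, 2.76, 4.15 and 4.89 CPM and at 55.0, 35.4, 47.2 and 33.2 CPM. Of 13 CA3 markers Coch, one of the rule's own, lay higher in all 3 knockout libraries, where 2.06%, 1.67% and 2.34% of all genes did. Its log2 ratios were 1.39, 0.59 and 1.21, and the counting interval in the astrocyte-labelled library was -0.11 to 1.37. Over all selected nuclei the ratios were 0.22, -0.84 and -0.21, so the direction turned in 2 of them. Prkcd lay higher in the astrocyte-labelled at 13.2, 14.9, 20.3 and 16.7 CPM, and Spock1 lay lower in the neuron-labelled.

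Immediate early genes are switched on by neurons soon after activity. Of 16 counted, 5 lay higher in the neuron-labelled library (Fosl2, Egr3, Egr4, Npas4, Nr4a2) and Jun lay lower, with a median of 0.37, where 2.34% of all genes lay higher and 4.28% lower. Nptx2 lay lower in the total-labelled library (list median -0.05), as Egr1 did in the astrocyte-labelled one (list median -0.21). In these libraries 5.62% and 2.64% of all genes lay lower. Npas4, a transcription factor of inhibitory synapse formation, stood at 5.07, 6.48, 5.44 and 15.1 CPM, a log2 ratio of 1.55 in the neuron-labelled library. In male nuclei of the clusters that ratio was 0.60, and in all selected male nuclei it was -0.38. Egr4 stood at 2.28, 3.36, 1.88 and 7.48 CPM and the nuclear receptor Nr4a2 at 22.0, 29.7, 15.5 and 34.1 CPM. These rest on low counts. In the neuron-labelled library Npas4 stood at 9.42 CPM in male and 21.5 in female nuclei, Nr4a2 at 20.1 and 50.5 CPM and Egr1 at 4.33 and 15.2 CPM, while wild-type male and female nuclei had 6.06 and 4.72 CPM of Npas4 and 19.8 and 24.7 CPM of Nr4a2. Male nuclei of the neuron-labelled library thus lay near wild type for Nr4a2.

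Over all 3974 selected nuclei the picture differed. Of 18 immediate early genes counted, 13 lay past 1.5-fold lower in the astrocyte-labelled library (median -0.74), 3 lower in the total-labelled (median -0.33), and 3 higher and 1 lower in the neuron-labelled (median 0.15). Of all genes 5.12% and 5.62% lay lower in the astrocyte- and total-labelled libraries, and 2.12% lay higher and 6.07% lower in the neuron-labelled one. The subicular and cortical markers summed to 195 CPM in the astrocyte-labelled and 312 CPM in the wild-type library in these nuclei, and the unnamed Rorb cluster, at 17 and 93 nuclei, moved with them. All 1409 nuclei outside the CA2-like and CA3-like clusters were left out, which took the doublet, mossy cell-like and granule-like nuclei with the Rorb cluster. Of 16 genes 1 then lay lower in the astrocyte-labelled library, where 2.64% of all genes did. Fos and Dusp1 held too few UMIs there to be counted. The part of the Rorb cluster in the difference was not tested.

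**Figure D5:**
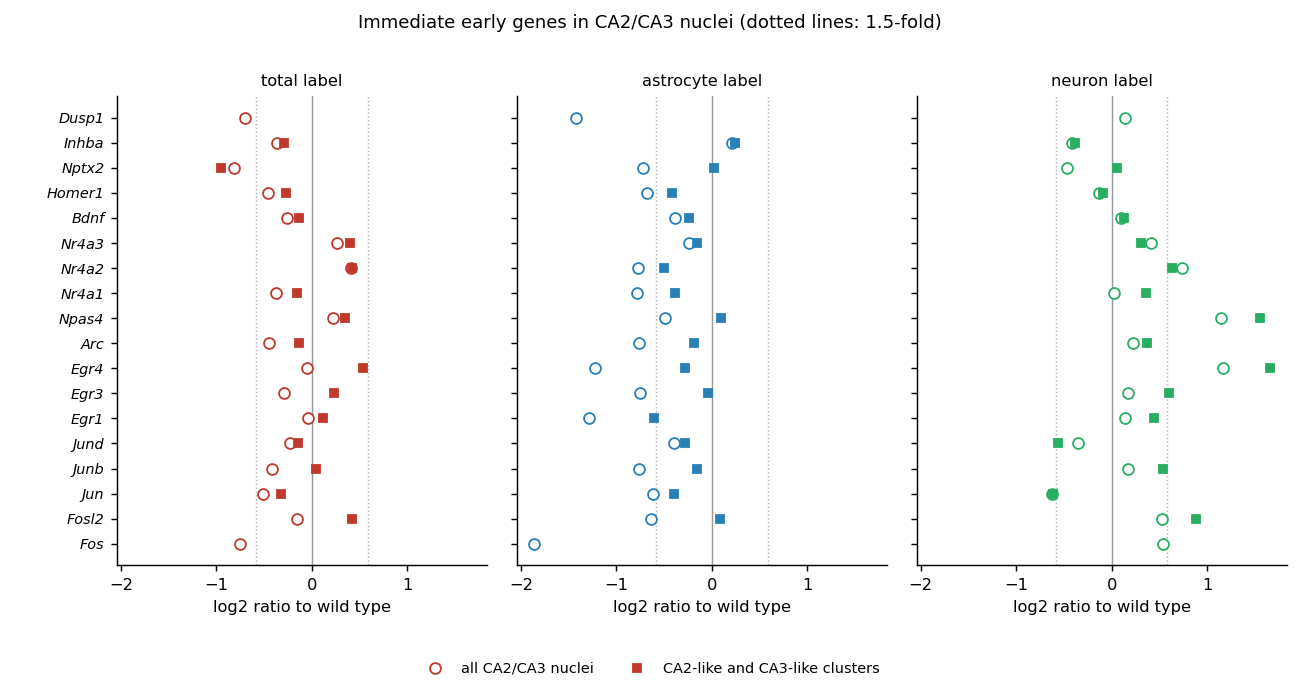
Log2 ratio to the wild-type library of 18 immediate early genes in each knockout library, with open circles for all selected nuclei and filled squares for the CA2/CA3-cluster nuclei, and dotted lines at 1.5-fold. In the astrocyte-labelled library the open circles lie mostly below the lower line and most squares lie nearer to 0, and Fos and Dusp1 have no square because they held under 100 UMIs there.

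Lists of heat shock, ribosomal protein and oxidative phosphorylation genes had medians below those of all genes (-0.04, -0.04 and -0.01). Of 7 heat shock genes, 1, 2 and 3 lay past 1.5-fold lower in the total-, astrocyte- and neuron-labelled libraries, with medians of -0.37, -0.51 and -0.56, where 5.62%, 2.64% and 4.28% of all genes lay lower. Hspa8, a constitutive chaperone, stood at 144, 83.4, 77.2 and 74.6 CPM, and in male nuclei at 134, 82.9, 81.1 and 78.9 CPM. Hsp90ab1 stood at 168, 115, 104 and 96.7 CPM and Hsp90aa1 at 149, 115, 108 and 96.0 CPM. Wild type was highest for each of these. Of 73 cytosolic ribosomal protein genes 1, 1 and 11 lay lower and none higher, with medians of -0.17, -0.29 and -0.36, so in the total- and astrocyte-labelled libraries the share past 1.5-fold was under that of all genes. Of 82 oxidative phosphorylation genes 8, 6 and 22 lay lower and none higher, with medians of -0.28, -0.27 and -0.38. The 4 nuclear-retained transcripts counted had medians of 0.12, 0.07 and 0.13 and none past 1.5-fold.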

How the data were processed

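Nuclear RNA was counted in 4 libraries of mouse hippocampus, 1 per genotype. The files the authors deposited hold whole-number UMI counts for each gene in each barcode. The submitters' processing notes name Cell Ranger ARC 2.0.0 and mm10, and neither they nor the labels say whether strand was used. Barcodes held 400 to 5998 detected genes and had been selected before deposit. The libraries were joined on 20211 of 22989 symbols, and 19830 (98.1%) were found in GENCODE M21. Library totals were 81623644 to 193307038 UMIs.

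The rule, the comparison nuclei and the lists are as in the report. Members and lists were chosen with earlier results of these data known. Selected nuclei were clustered with scanpy 1.11.5 and leidenalg 0.10.2 (resolution 0.5, 2000 variable genes). A name needed 3 markers past 2-fold, and clusters with over 50% Scrublet doublets stayed unnamed. Doublets were called but kept. A nucleus with Xist and no Y-linked UMI was taken as female, and the reverse as male. UMIs were summed per library and given as CPM. Ratios used a pseudocount of 1 UMI and genes with at least 100 UMIs. With 1 library per genotype no test was made, and intervals (95%, exact Poisson, binomial and Clopper-Pearson) cover counting error only.

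Named genes were Mgll, the markers, list genes past 1.5-fold or most abundant, the 5 highest and 5 lowest ratios per knockout library ranked by the interval bound nearer 0 (among genes with a mean CPM at least that of nuclei not selected), the 5 with the widest gaps in all 3 or in the total- and neuron-labelled libraries, the 10 leading genes against CA1 and granule nuclei, and each cluster's leading genes, without sex and mitochondrial genes. Ribosomal and oxidative phosphorylation genes were chosen by symbol. Alternatives were a pseudocount of 0.5, at least 20 UMIs, at least 5 markers, doublets left out, male nuclei, the largest cluster, 3000 UMIs per nucleus, resolution 1, 1000 variable genes and TMM factors from edgeR 4.0.16. Restriction to CA2-like and CA3-like clusters was added after seeing the data.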

Additional observations from a re-analysis of the deposited data

Results flagged for a closer look

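The log2 ratio of Mgll between the astrocyte-labelled and the wild-type library was 0.27 in the CA2/CA3-cluster nuclei and -0.10 in CA1 nuclei. The counting intervals lay on opposite sides of 0 (0.16 to 0.39 and -0.20 to -0.0036), the CA1 interval narrowly. Mgll was singled out because the difference runs in opposite directions in the 2 cell groups. The difference between them was not tested, since each genotype has 1 library. In male CA2/CA3-cluster nuclei the ratio was 0.03. Granule nuclei had a ratio of 0.22 (0.12 to 0.32), the same direction as all CA2/CA3-cluster nuclei.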

How the results depend on the processing

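No paired analysis was possible because each genotype has 1 library, and no replicate could be left out. The share of selected nuclei, in the order wild-type, total-, astrocyte- and neuron-labelled, was 4.82%, 3.09%, 7.65% and 5.17% with at least 5 markers, 2.13%, 1.62%, 3.13% and 1.85% after thinning to 3000 UMIs, and 4.98%, 2.65%, 7.52% and 5.43% in the CA2-like and CA3-like clusters. With doublets left out it was 4.08% in the total-labelled and 9.35% in the astrocyte-labelled library. The order of the shares was astrocyte-labelled highest and total-labelled lowest in each of these. The Mgll log2 ratio over all selected nuclei was -0.34, 0.26 and -0.00. In male nuclei it was -0.60, -0.0037 and -0.23, in male nuclei of the CA2-like and CA3-like clusters -0.50, 0.027 and -0.15, and in the largest cluster -0.18 for the total-labelled library. Genes past 1.5-fold numbered 1077, 868 and 1079 over all selected nuclei, 616, 502 and 586 in the largest cluster, where fewer genes were counted, and 2673, 2364 and 2720 with at least 20 UMIs. In the astrocyte-labelled library they numbered 509 in the CA2-like and CA3-like clusters and 515 there with doublets left out. The cause of these differences was not tested. The CA2-like cluster held 155 nuclei as reported, 155 at resolution 1, 125 with 1000 variable genes and 145 without called doublets. The unnamed Igfn1 cluster stayed unnamed at resolution 1 (183 nuclei) and without doublets (167) but took subicular and cortical markers enough for that name with 1000 variable genes (202), and a CA1-like cluster of 119 nuclei was obtained without doublets.

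Of 956 recomputed ratios of 175 gene and library pairs, 738 kept within the counting interval, 191 moved beyond it and 27 changed sign, and all 175 were kept under TMM factors. In the astrocyte-labelled library Coch changed sign to 0.17 with at least 5 markers, 0.59 in the CA2-like and CA3-like clusters, 0.44 in their male nuclei and 0.53 without their doublets, and Fosl2 to 0.0045, 0.086, 0.62 and 0.088 in the same order. Also in that library, with at least 5 markers Gabrd was 0.27, Kcnh7 0.37 and Nptx2 0.15, in the largest cluster Egr3 was 0.21 and Unc13c 0.20, in the clusters Nptx2 was 0.025, in their male nuclei Egr3 was 0.073, Junb 0.085 and Npy1r 0.33, and in all male nuclei Slc17a6 was 0.21. In the total-labelled library Dusp1 was 0.12 with at least 5 markers, Gpc4 -0.14, Grm2 -0.10 and Sv2c -0.56 without doublets, Unc13c -0.011 in the clusters without doublets and Naaa -0.22 in their male nuclei. In the neuron-labelled library Aim2 was 0.076 and Npas4 -0.38 in male nuclei, and Naaa -0.085 in male nuclei of the clusters. The cause was not tested. Genes such as Avpr1b, Egr4 and Olfr557 rest on few UMIs, and the effect of depth on single genes was not measured.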

Other observations

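The choroid plexus transcript Ttr stood at 2.66, 33.9, 0.791 and 0.136 CPM in the CA2/CA3-cluster nuclei of the wild-type, total-, astrocyte- and neuron-labelled libraries. In the total-labelled library 19 of 819 nuclei held its 282 UMIs, and 1 nucleus held 223 of them. Without that nucleus Ttr stood at 7.08 CPM, and wild type without its highest nucleus at 2.03 CPM.

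The mossy cell-like nuclei that the rule also took carried at least 4 of its markers because the rule required it, so their marker levels are a description. Summed over the 4 libraries they had 3807 CPM of Trps1, 114 CPM of Mndal and 249 CPM of Nectin3. Calb2, which encodes calretinin and marks mossy cells, stood at 58.2 CPM there and at 27.1 CPM in the Kcnmb2-led CA3-like cluster. Cnr1, the CB1 receptor, stood at 163 CPM in them, against 47.5 to 118 CPM in the CA2-like and CA3-like clusters.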
